A study of Mus musculus with 6 samples.

Results

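The 33 genes described here encode the subunits of Mediator, and they were measured by RNA-seq in V6.5 murine embryonic stem cells (ESCs) that carried lentiviral short hairpin RNAs (shRNAs). Each gene was taken from the deposited files by its RefSeq identifier, as the RefSeq row with the most counts over the 6 libraries, among 21125 genes in all. Of the 33 genes, 32 were found by accession and Med6 by its overlap with the annotated gene. The control library (GFP) came from ESCs with a hairpin against GFP, a sequence that these cells do not encode, and the SMC1 library from ESCs with a hairpin against Smc1a, the gene of a cohesin subunit. Each of these groups has 1 library. CAPH2 has 2 libraries, from different hairpins (CAPH2 #1 and CAPH2 #2) against Ncaph2, which encodes a condensin II subunit. Their numbers are those of the study's list of constructs, matched by construct identifier, while the sample labels also number the same constructs 3 and 4. SMC2 also has 2 libraries from different hairpins (SMC2 #1 and SMC2 #2), and SMC2 is a subunit shared by the condensin complexes. All 6 libraries come from the same ESC line, after infection and puromycin selection, and from cells grown for a passage without the irradiated fibroblasts on which the line is kept. A hairpin lowers its target without deleting it, and nothing in the labels says that the libraries are independent repeats, so p-values measure only the spread between these samples.

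Mediator is a large coactivator complex that carries the signal of transcription factors bound at enhancers to RNA polymerase II at the promoter. Its head and middle modules touch the polymerase, its tail binds activators, MED14 is the backbone that links them, and a separable kinase module made of MED12, MED13, cyclin C and CDK8, or their paralogs, docks onto the core and can keep the polymerase away. In ESCs Mediator occupies enhancers and promoters together with NIPBL, the factor that loads cohesin, and the study asked how cohesin and condensin II act at such sites. The comparison of SMC1 with the condensin hairpins shows how transcripts of the coactivator differ between these knockdown libraries, whose depths of knockdown differ.

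The total counts were between 25467427 and 31337313 per library. Levels are given as RPKM, the reads of a gene scaled to its exon length and to the size of the library. Smc1a had 36.1 RPKM in GFP against 14.4 with its own hairpin, Ncaph2 had 80.2 in GFP against 16.9 and 27.9 with CAPH2, and Smc2 had 26.6 in GFP against 18.8 and 19.1 with SMC2. The targets also differed under other hairpins. Ncaph2 was 54.0 RPKM in SMC1 and 63.9 and 64.9 with SMC2, and Smc2 was 41.9 in SMC1 and 42.3 and 40.6 with CAPH2. The part of these shifts and of unequal knockdown in the differences below was not tested. The ESC marker Pou5f1 was abundant in every library (785 to 1285 RPKM). The summed RPKM of 6 ESC markers was 2985 in GFP, 1755 in SMC1 and between 2501 and 2675 with the condensin hairpins, and that of 6 fibroblast markers was 46.4 in GFP, 91.8 in SMC1, 72.3 with CAPH2 #1 and between 49.4 and 55.7 in the other 3 libraries. None of these markers was listed at 0. In the SMC1 test described below, 5 of the 6 ESC markers were lower and 5 of the 6 fibroblast markers higher in SMC1, and among 6 primitive endoderm markers 3 were higher and 1 lower. The summed RPKM of the primitive endoderm markers was 19.7 in GFP and 19.0 in SMC1, but this sum holds opposite shifts. The 1 lower marker, Lama1, had 13.1 RPKM in GFP and 6.5 in SMC1. The 3 higher markers were Dab2 (2.0 and 5.5 RPKM), Gata4 (2.4 and 3.6) and Foxq1 (1.3 and 2.6). The part of these marker shifts in the Mediator differences of the SMC1 library was not tested. In bulk samples fewer cells of a type and less RNA per cell cannot be told apart. The spike-in RNAs, added by cell number, took 1.72% of the counts in GFP and 0.948% in SMC1. Their share was 1.11% with CAPH2 #1, 1.77% with CAPH2 #2, 1.11% with SMC2 #1 and 1.16% with SMC2 #2. Scaling to the spike-in RNAs raised the median log2 change of all genes against GFP by 0.86 for SMC1, 0.33 for the CAPH2 average and 0.60 for the SMC2 average. The CAPH2 value thus averages hairpins with unlike shares, of which that of CAPH2 #2 is close to GFP. The changes below are relative to the other transcripts of each library.

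All 33 Mediator genes were transcribed in every library, with between 114 and 4005 counts each. In the GFP library their median was 19.8 RPKM, and 25 of the 33 lay above the median of 14.1 RPKM of the 12200 genes with at least 1 RPKM there. The 3 highest were Med25 (65.3 RPKM), a tail subunit bound by activators, Med30 (62.5 RPKM), a subunit between head and tail, and Med21 (53.7 RPKM), a middle subunit. The 3 lowest were all in the kinase module, Med13 (6.35 RPKM), Cdk19 (5.92 RPKM) and Med12l (0.612 RPKM). By module the GFP median was 30.0 RPKM for the 7 head genes, 20.6 RPKM for the 9 middle genes, 26.2 RPKM for the 5 tail genes and 10.9 RPKM for the 7 kinase genes. The 33 genes thus spanned a 106.7-fold range of transcript level. Its lower end is set by Med12l, a paralog that can take the place of Med12 in the complex. The RPKM summed over all 33 genes was 849 in GFP, 826 in SMC1, 876 and 851 with CAPH2 and 855 and 819 with SMC2, so it stayed within 96.5% to 103.3% of the GFP library.

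**Figure D1:**
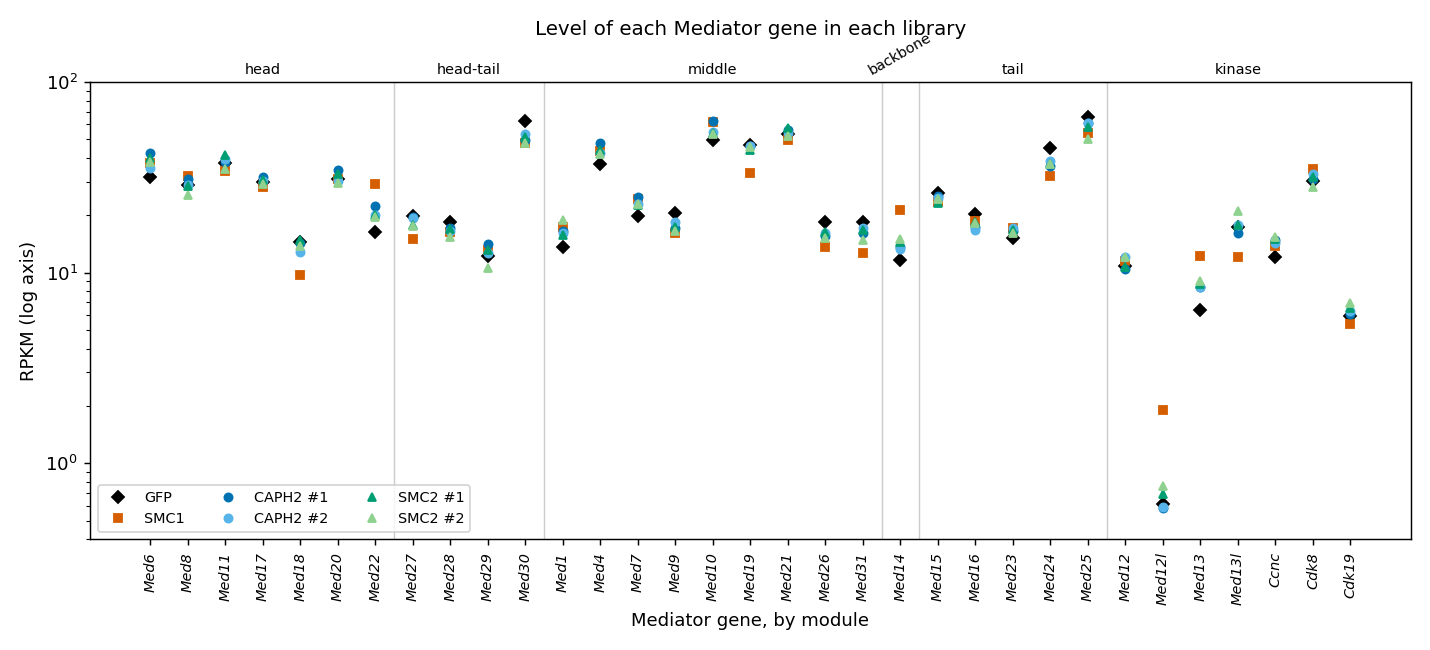
RPKM (log axis) of the 33 Mediator genes, grouped by module, with 1 point for each of the 6 libraries and no averaging. Med12l lies lowest, at 0.612 RPKM in GFP and 1.90 in SMC1, and most genes lie between 10 and 65 RPKM with the libraries close together.

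Against the GFP library, 3 Mediator genes were at least 1.5-fold higher in SMC1, and none was 1.5-fold lower. These were Med13, with a log2 change of 0.95, Med14 with 0.87 and Med22 with 0.84. They are 3 of the 32 genes above 1 RPKM in GFP (9.38%), a filter that leaves out Med12l, and 15.1% of all 12200 such genes were 1.5-fold higher and 17.6% were 1.5-fold lower. The lowest value was that of Med18, a log2 change of -0.58, which just missed the 1.5-fold limit. The median log2 change of the 32 genes in SMC1 was -0.10 and their median absolute change 0.26, next to -0.035 and 0.38 over all 12200 genes. With the averages of the CAPH2 and the SMC2 hairpins no Mediator gene passed 1.5-fold in either direction, while 7.13% of all genes did so with CAPH2 and 6.11% with SMC2. The median log2 change of the 32 genes was 0.033 with CAPH2 #1, 0.022 with CAPH2 #2, 0.058 with SMC2 #1 and -0.057 with SMC2 #2. These comparisons share the single GFP library and have no p-value.

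**Figure D2:**
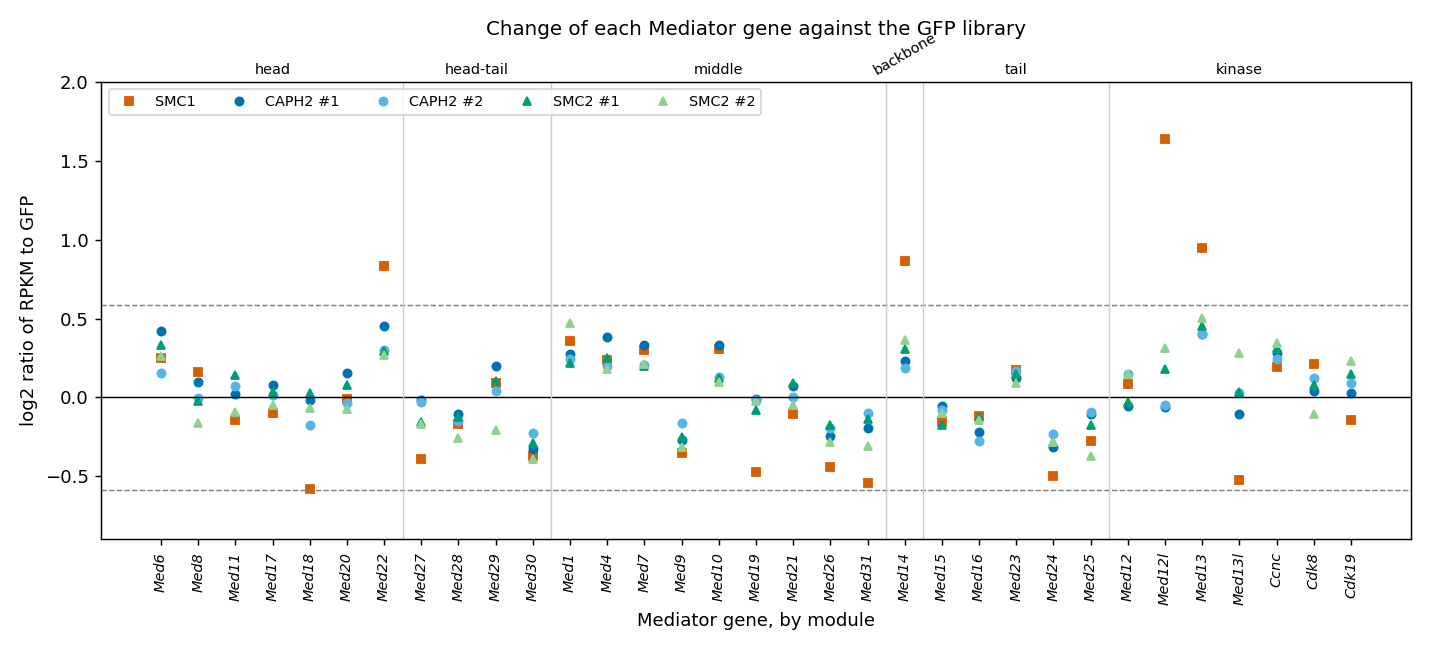
Log2 ratio of RPKM to the GFP library for each Mediator gene, with a point for each of the 5 knockdown libraries and dashed lines at 1.5-fold. The SMC1 points of Med12l (1.64), Med13 (0.95), Med14 (0.87) and Med22 (0.84) stand above the upper line, and scaling to the spike-in RNAs would move every SMC1 point up by 0.86, which turns all SMC1 decreases into increases.

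The SMC1 library was also set against the range of the other 5 libraries. Among the 32 genes above 1 RPKM in GFP, 6 were higher in SMC1 than in all other libraries (18.8%, against 33.7% of all genes) and 12 were lower (37.5%, against 38.1%). The GFP library was above all others for 11 genes (34.4%, against 32.5% of all genes) and below all others for 10 (31.2%, against 26.4%). No test of these shares was made.

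In the edgeR quasi-likelihood test of SMC1 against the mean of the 4 condensin libraries, 11 of the 33 Mediator genes passed an adjusted p of 0.05 (Benjamini-Hochberg over 14627 genes). Transcripts of Med12l, Med14, Med22 and Med13 were higher in SMC1, while those of Med13l, Med18, Med19, Med31, Med27, Cdk19 and Med24 were lower. The 4 higher genes are 12.1% of the members, and 22.2% of all genes tested were called higher in SMC1. The 7 lower genes are 21.2% of the members, and 21.7% of all genes were called lower. The median log2 difference was -0.081 over the 33 genes and -0.025 over all genes, and the median absolute difference was 0.14 and 0.32. The single SMC1 library is assumed in this test to vary like the pairs of hairpins, which leave 2 residual degrees of freedom. The quasi-likelihood fit also draws the spread of each gene toward that of all genes. The p-values therefore rest on this shared spread as well.

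The kinase module held 4 of the 11 calls, 2 in each direction. Med13 (NM_001080931, mm9 chromosome 11 from 86079217 to 86171027, minus strand) encodes the subunit that joins the kinase module to the core. Its level was 6.35 RPKM in GFP, 12.2 in SMC1, 8.41 with both CAPH2 hairpins, and 8.68 and 9.02 with the SMC2 hairpins. SMC1 was highest, GFP lowest, and the 4 condensin libraries lay close together between them (8.63 ± 0.287 RPKM, SD, n = 4). Relative to GFP the SMC1 level was 193% (95% exact binomial interval 181 to 205, which like the others below covers counting error only). The edgeR log2 difference from the condensin libraries was 0.47 (standard error 0.075, adjusted p = 0.000835).

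Med13l (NM_172424, chromosome 5 from 119010728 to 119215446, plus strand), the paralog of Med13, moved the other way. It had 17.4 RPKM in GFP, 12.1 in SMC1, 16.1 and 17.7 with CAPH2 and 17.8 and 21.1 with SMC2. SMC1 was below the 5 other libraries, which overlapped with each other. The SMC1 level was 69.5% of GFP (65.8 to 73.3), and the log2 difference from the condensin libraries was -0.62 (standard error 0.11, edgeR adjusted p = 0.00144). Med13l was thus 73.2% of the summed RPKM of the pair in GFP, 49.6% in SMC1 and between 65.7% and 70.1% with the condensin hairpins. A ratio within a library is the same under every scaling of the libraries, and no test of the ratio was made. The transcripts of the pair share 69.0% identity over 2271 aligned bases.

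Med12l (NM_177855, chromosome 3 from 58810900 to 59122332, plus strand), the scarce paralog of Med12, showed the largest difference among the 33 genes. Its counts were 135 in GFP, 375 in SMC1, 140 and 114 with CAPH2 and 160 and 159 with SMC2, or 0.612, 1.90, 0.586, 0.591, 0.693 and 0.760 RPKM. SMC1 stood above all others, and GFP lay among the condensin libraries. The SMC1 level was 311% of GFP (255 to 382), and the log2 difference from the condensin libraries was 1.51 (standard error 0.14, edgeR adjusted p = 3.47e-05). The 3′ end of Med12l overlaps exons of Igsf10 on the opposite strand by 1676 bases, 16.1% of its exon bases, and the libraries do not keep strand, so reads there cannot be told apart. Igsf10, which encodes an immunoglobulin superfamily protein, had 231 counts in GFP, 577 in SMC1 and between 236 and 339 with the condensin hairpins, and so moved with it. If Igsf10 reads were spread evenly over its exons, they would account for 38.4 of the Med12l counts in GFP and 95.9 in SMC1. The remainders of 96.6 and 279.1 counts, once scaled to the size of each library as the RPKM values are, would differ 3.23-fold. The Igsf10 counts can themselves hold Med12l reads from the shared bases, and even coverage was assumed. The subtraction therefore cannot settle how many reads belong to each gene.

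Med12 itself, which activates the kinase, was nearly level, at 10.9 RPKM in GFP, 11.5 in SMC1 and between 10.5 and 12.1 in the condensin libraries. Its log2 difference between SMC1 and these libraries was -0.0034 (standard error 0.11, edgeR adjusted p = 0.982). Med12l made up 5.33% of the pair in GFP, 14.2% in SMC1 and between 4.68% and 6.10% with the condensin hairpins. The transcripts of Med12 and Med12l share 69.0% identity over 4502 aligned bases.

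Of the kinases, Cdk19 was lower in SMC1 and its paralog Cdk8 was not called. Cdk19 (NM_001168304, chromosome 10 from 40069114 to 40203624, plus strand) had 5.92 RPKM in GFP, 5.36 in SMC1, 6.04 and 6.30 with CAPH2 and 6.56 and 6.93 with SMC2. SMC1 was the lowest library, next to GFP. The log2 difference from the condensin libraries was -0.30 (standard error 0.10, edgeR adjusted p = 0.0378). Cdk8 ranged from 28.1 RPKM with SMC2 #2 to 34.9 in SMC1, with a log2 difference of 0.14 (standard error 0.096, edgeR adjusted p = 0.259). A near-identical copy on chromosome 14 covers 68.1% of the Cdk8 transcript at 99.3% identity, so the Cdk8 counts are uncertain. Ccnc, which encodes cyclin C, the partner of both kinases, was between 12.1 RPKM in GFP and 15.4 with SMC2 #2, and its difference between SMC1 and the condensin libraries was -0.14 (standard error 0.090, edgeR adjusted p = 0.241).

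**Figure D3:**
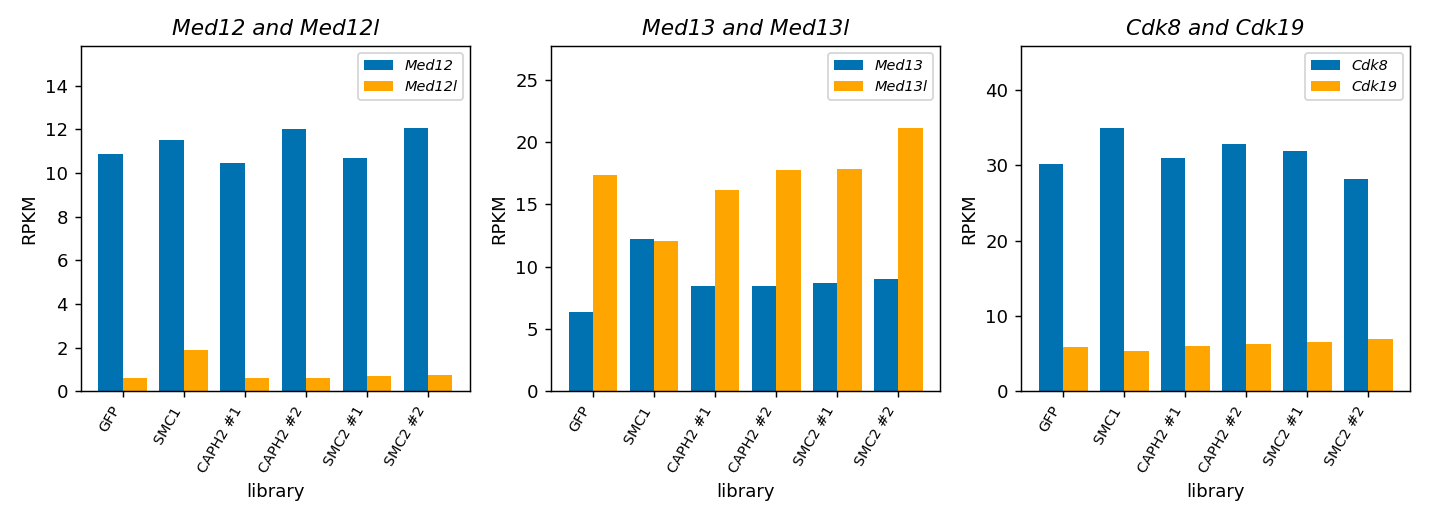
RPKM of the 3 pairs of kinase-module paralogs in each of the 6 libraries, with 1 bar for each gene and library and no error bar because each bar is 1 library. Med13 and Med13l are near level in SMC1 (12.2 and 12.1 RPKM), while Med13l is the higher of the pair in the other 5 libraries.

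Outside the kinase module, the backbone gene and a head gene were higher in SMC1. Med14 (NM_001048208, chromosome X from 12252497 to 12339099, minus strand) had 11.7 RPKM in GFP, 21.3 in SMC1, 13.7 and 13.3 with CAPH2 and 14.4 and 15.0 with SMC2. As for Med13, SMC1 was highest and GFP lowest. The SMC1 level was 182% of GFP (172 to 194), and the log2 difference from the condensin libraries was 0.56 (standard error 0.075, edgeR adjusted p = 0.000303). Med22 (NM_011513, chromosome 2 from 26760787 to 26766162, minus strand), a head subunit, had 16.4 RPKM in GFP, 29.2 in SMC1, 22.4 and 20.2 with CAPH2 and 20.1 and 19.7 with SMC2. The order of the libraries was again SMC1 above the condensin hairpins and GFP below them. The SMC1 level was 179% of GFP (166 to 192), and the log2 difference was 0.47 (standard error 0.085, edgeR adjusted p = 0.00163).

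The promoter sequences of the 4 genes that were higher in SMC1 are shown because these genes moved in the same direction from different chromosomes. Of the 33 genes, 28 have a promoter window in the RefSeq table (GRCm38.p6), 32 windows in all, and the 250 bases before the annotated start were taken, 5′ to 3′ on the strand of the gene. Capitals mark the GC box letters GGGCGG on either strand. The windows are chr3:59006728-59006977 (plus strand) for Med12l, chr11:86357597-86357846 (minus strand) for Med13, chrX:12761974-12762223 (minus strand) for Med14 and chr2:26910643-26910892 (minus strand) for Med22.
Med12l: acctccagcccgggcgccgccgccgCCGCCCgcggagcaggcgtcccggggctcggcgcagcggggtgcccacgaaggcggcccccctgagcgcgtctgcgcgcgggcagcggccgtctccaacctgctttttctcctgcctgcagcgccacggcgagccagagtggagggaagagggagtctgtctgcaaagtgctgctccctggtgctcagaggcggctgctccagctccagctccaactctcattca
Med13: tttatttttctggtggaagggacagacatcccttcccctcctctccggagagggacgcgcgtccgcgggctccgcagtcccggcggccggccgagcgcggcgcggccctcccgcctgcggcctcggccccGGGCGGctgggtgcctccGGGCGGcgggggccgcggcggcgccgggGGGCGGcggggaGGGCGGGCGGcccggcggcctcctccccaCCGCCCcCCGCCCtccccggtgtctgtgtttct
Med14: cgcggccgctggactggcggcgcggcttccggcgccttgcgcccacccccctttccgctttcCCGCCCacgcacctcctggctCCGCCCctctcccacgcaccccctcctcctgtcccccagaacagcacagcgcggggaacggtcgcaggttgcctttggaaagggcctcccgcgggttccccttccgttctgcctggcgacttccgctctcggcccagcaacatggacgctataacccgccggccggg
Med22: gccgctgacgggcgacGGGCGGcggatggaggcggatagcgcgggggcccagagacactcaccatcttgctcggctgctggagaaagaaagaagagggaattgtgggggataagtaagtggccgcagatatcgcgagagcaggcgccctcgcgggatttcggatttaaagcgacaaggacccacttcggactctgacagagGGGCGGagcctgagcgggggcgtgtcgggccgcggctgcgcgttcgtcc
The Med13 window holds 7 GC boxes, counted on both strands with overlaps allowed, Med14 and Med22 hold 2 each and Med12l holds 1. A GC box was present in 20 of the 32 windows of Mediator genes (62.5%) and in 32.7% of all 32851 windows of the table. Among the members lower in SMC1 it was in 2 of 6 windows. None of the 4 windows holds the TATA box letters TATAAA, which are in 3 of the 32 windows and in 12.4% of all. The ETS letters CCGGAAG were in 6 of the 32 windows, 1 of them among the 4, and in 6.91% of all. The CCAAT letters were in 12 of the 32 windows, none of them among the 4, and in 33.9% of all. All motifs were searched on both strands, no motif contains another, and a match is a description of the sequence. The 4 windows hold between 26 and 37 CG dinucleotides, the windows of all members a median of 15 and those of the whole table a median of 6.

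Of the core genes that were lower in SMC1, Med19 and Med18 differed most. Med19 (NM_025885, chromosome 2 from 84518559 to 84528371, plus strand), a middle subunit, had 46.6 RPKM in GFP, 33.5 in SMC1, 46.3 and 46.0 with CAPH2 and 44.1 and 45.9 with SMC2. SMC1 was lower than all other libraries, which lay within a few RPKM of each other. The SMC1 level was 71.9% of GFP (67.1 to 77.1), and the log2 difference from the condensin libraries was -0.48 (standard error 0.083, edgeR adjusted p = 0.00144). Med19 shares 12.8% of its exon bases with genes on the opposite strand, mainly Zdhhc5, whose counts were 2578 in GFP and 3454 in SMC1 and so went the other way. Med18 (NM_026039, chromosome 4 from 132014644 to 132019836, minus strand), a head subunit that touches the polymerase, had 14.5 RPKM in GFP, 9.71 in SMC1, 14.4 and 12.9 with CAPH2 and 14.8 and 13.9 with SMC2. SMC1 was again the lowest library, and GFP lay within the range of the condensin hairpins. The SMC1 level was 66.9% of GFP (57.9 to 77.1), and the log2 difference was -0.56 (standard error 0.13, edgeR adjusted p = 0.00567).

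The other lower core genes differed by less. Med31 (NM_026068, chromosome 11), a middle subunit, had 18.4 RPKM in GFP, 12.7 in SMC1 and between 14.9 and 17.2 with the condensin hairpins, and its log2 difference was -0.39 (standard error 0.13, edgeR adjusted p = 0.0395). It shares 26.3% of its exon bases with a gene on the opposite strand, which had between 61 and 79 counts. Med27 (NM_026896, chromosome 2), between head and tail, had 19.8 RPKM in GFP, 15.1 in SMC1 and between 17.6 and 19.6 with the condensin hairpins, and its difference was -0.33 (standard error 0.11, edgeR adjusted p = 0.0389). Med24 (NM_011869, chromosome 11), a tail subunit, had 45.3 RPKM in GFP, 32.0 in SMC1 and between 36.4 and 38.5 with the condensin hairpins, and its difference was -0.25 (standard error 0.081, edgeR adjusted p = 0.0294). In each of these genes SMC1 was the lowest library and GFP the highest.

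Med1, which encodes a middle subunit, was not called. It had 13.6 RPKM in GFP, 17.4 in SMC1, 16.5 and 16.1 with CAPH2 and 15.9 and 18.9 with SMC2, so that SMC1 lay among the condensin libraries and GFP below all others. The log2 difference of SMC1 from the condensin libraries was 0.018 (standard error 0.099, edgeR adjusted p = 0.895). By module, 2 of the 7 head genes, 1 of the 4 head-tail genes, 2 of the 9 middle genes, the backbone gene, 1 of the 5 tail genes and 4 of the 7 kinase genes were called, beside 43.8% of all genes, and no module was tested against the others. With DESeq2 7 of the 11 calls were kept, or 21.2% of the members beside 29.1% of all genes called, and Med31, Med27, Cdk19 and Med24 were lost. Without either SMC2 hairpin the log2 differences of these lost genes lay between -0.42 and -0.24. Scaled to the spike-in RNAs the Med12l call was kept and the other 10 were lost, while the median of all genes rose by 0.43. The differences of Med13, Med14 and Med22 were then larger, at 0.90, 0.99 and 0.90, although they were not called. Those of Med13l, Med18 and Med19 were smaller, at -0.18, -0.14 and -0.046, and those of Med31, Med27, Cdk19 and Med24 turned to above 0.

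The condensin libraries were compared with GFP in the same fit, a comparison that shares the 4 condensin libraries with the one above. Of the 33 genes 3 were called by edgeR. Med13 and Med22 were higher in the condensin libraries, and Med24, a tail gene, was lower. The 2 higher genes are 6.06% of the members, beside 6.43% of all genes, and the 1 lower gene is 3.03%, beside 5.37% of all genes. Med13 differed by a log2 value of 0.45 (standard error 0.081, edgeR adjusted p = 0.0140), and each of the 4 condensin libraries exceeded GFP. Med22 differed by 0.34 (standard error 0.090, edgeR adjusted p = 0.0414), again with all 4 libraries above GFP. Med24 differed by -0.27 (standard error 0.077, edgeR adjusted p = 0.0474), with all 4 libraries below GFP.

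Several further genes lay close to the threshold in that comparison. Med14 had a log2 difference of 0.28 (edgeR adjusted p = 0.0514), Ccnc of 0.30 (edgeR adjusted p = 0.0576), Med1 of 0.31 (edgeR adjusted p = 0.0745) and Med30 of -0.30 (edgeR adjusted p = 0.0699). For Med14, Ccnc and Med1 GFP was the lowest of the 6 libraries, and for Med30, with 62.5 RPKM in GFP and between 47.6 and 53.5 elsewhere, it was the highest. The median log2 difference of the 33 genes was 0.041, beside 0.0030 over all genes. The count of calls depended on which hairpin was left out, for the Mediator genes and over all genes. DESeq2 called 1 Mediator gene, beside 7.45% of all genes. Med13 was the only Mediator gene called by DESeq2 and without each hairpin in turn, at log2 differences between 0.44 and 0.47. Scaled to the spike-in RNAs no Mediator gene was called, with the median of all genes raised by 0.46. The differences of Med13 and Med22 were then larger, at 0.91 and 0.81, and Med24 turned to 0.18.

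**Figure D4:**
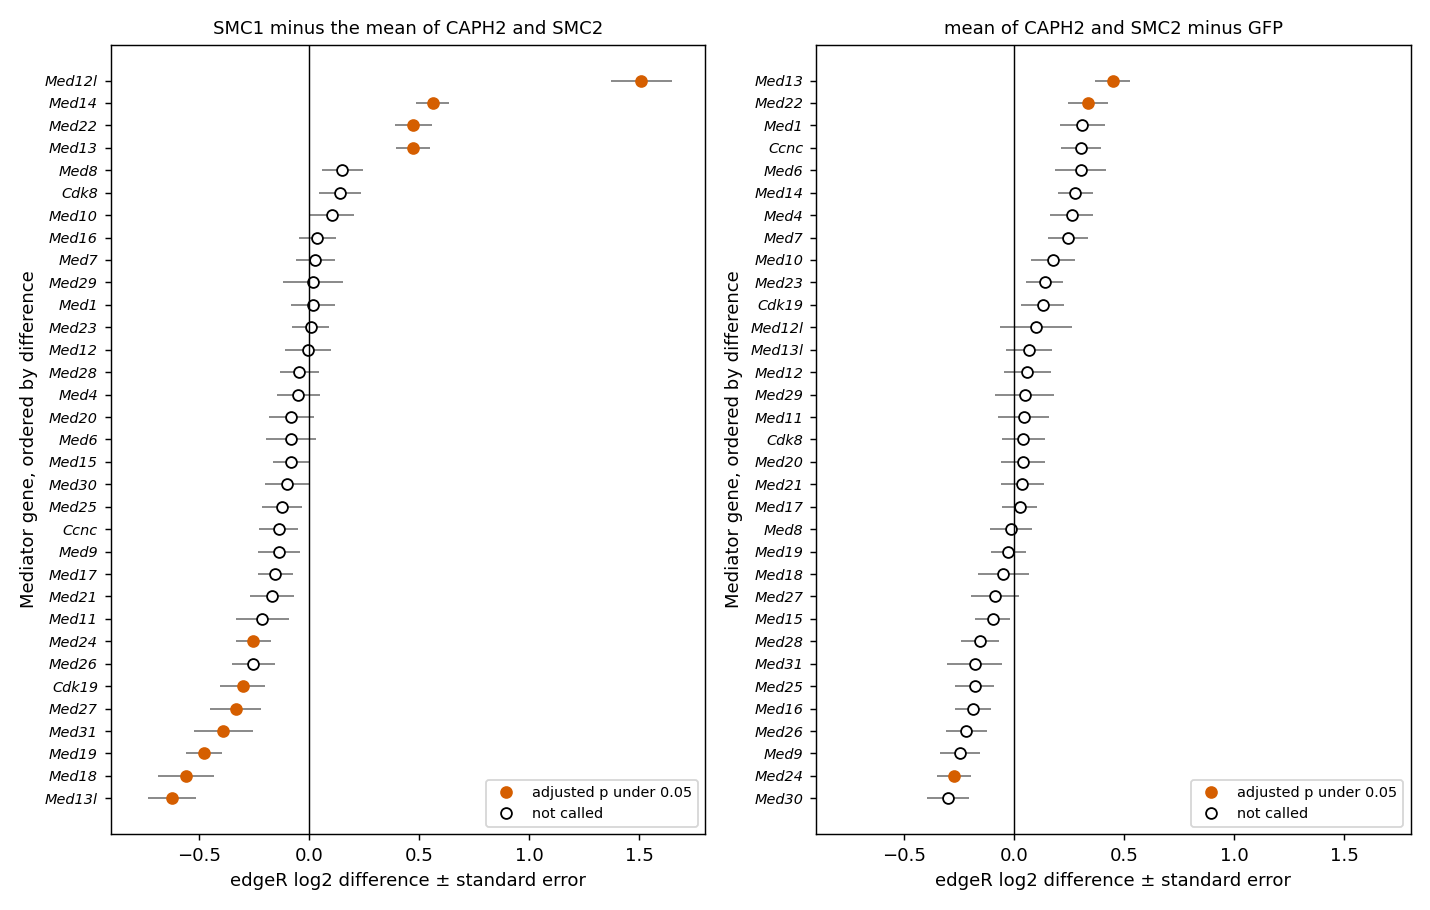
Log2 differences of the 33 Mediator genes from the edgeR fit, with standard errors, for SMC1 minus the condensin libraries (left) and the condensin libraries minus GFP (right). Filled points passed an adjusted p of 0.05, 11 genes on the left and 3 on the right, and scaling to the spike-in RNAs would move the median of all genes up by 0.43 and 0.46.

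The CAPH2 and SMC2 hairpins were compared with each other as the only contrast with 2 libraries on each side. No Mediator gene was called by edgeR, and Med13l alone of the 33 fell under an unadjusted edgeR threshold of 0.05. By DESeq2 the numbers called and under the unadjusted threshold were also 0 and 1. Of all 14627 genes, 453 were under the unadjusted threshold with edgeR and 141 with DESeq2. Over all genes edgeR called 0.00684%, which is the target Smc2 alone (log2 difference -1.12, edgeR adjusted p = 0.00022). The other target, Ncaph2, was not called in spite of a log2 difference of 1.54 (edgeR adjusted p = 0.0543). The log2 differences of the 33 genes, SMC2 minus CAPH2, ranged from -0.16 for Med25 to 0.31 for Med12l, with a median standard error of 0.086. A missed threshold does not show that the hairpins of both targets act alike.

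Genes that work beside Mediator were counted in the same SMC1 test, in which 22.2% of all genes were called higher and 21.7% lower. Of the 12 RNA polymerase II subunit genes, 3 were lower and none higher in SMC1, the largest changes being those of Polr2e (log2 difference -0.74, edgeR adjusted p = 0.000207) and Polr2i (-0.46, edgeR adjusted p = 0.0116). Of 31 genes of the general transcription factors, which place the polymerase at promoters, 12 were lower and none higher, led by the TFIIH subunits Gtf2h1 (-0.67, edgeR adjusted p = 0.000295) and Gtf2h4 (-0.49, edgeR adjusted p = 0.00271). Of 18 elongation factor genes 3 were lower and 1 higher, with Ell3 (-0.85, edgeR adjusted p = 0.00184) and Aff1 (-0.69, edgeR adjusted p = 0.000655) changed most. Of the 7 cohesin and cohesin loader genes 3 were higher and 1 lower, the latter the target Smc1a itself (-1.68), and Stag1, a cohesin subunit gene, rose by 0.58 (edgeR adjusted p = 0.000241). The median log2 differences were -0.16 for the polymerase genes, -0.21 for the general factors, -0.066 for the elongation factors and -0.070 for the cohesin genes, next to -0.081 for the Mediator genes and -0.025 for all genes. In the comparison of the condensin libraries with GFP, 1 of the 12, 1 of the 31, 2 of the 18 and 4 of the 7 genes were called, all of them higher in the condensin libraries, beside 6.43% of all genes called higher and 5.37% called lower. No test of these counts against the other genes was made.

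Some counts of Mediator genes are uncertain because of copies or overlaps elsewhere in the genome. Genes on the opposite strand share 21.5% of the exon bases of Med7, 21.1% of Med21, 7.43% of Med13, 4.62% of Cdk19 and 4.41% of Med27. Med12 shares 9.80%, with a gene on the same strand. The partners of Med7, Med10, Med13, Cdk19 and Med27, and the main partner of Med21, were not listed under their names, so their levels are not known here. Besides Cdk8, near-identical sequence covers 69.2% of the Med4 transcript, 52.5% of Med29 and 25.3% of Med10, and reads that fit more than 2 places had been discarded. Med10 shares 96.3% of its exon bases with an annotated gene on the opposite strand. None of Cdk8, Med4, Med29 and Med10 was called in the fits of all 6 libraries without a replicate block. The log2 difference of Med4 between the condensin hairpins and GFP depended on the hairpin left out. It was 0.26 with all 6 libraries, 0.30 without CAPH2 #2 and 0.22 without CAPH2 #1.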

How the data were processed

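RNA-seq was performed by the authors on 6 libraries (GFP and SMC1 with 1 each, CAPH2 and SMC2 with 2 hairpins each). Per the labels and methods, libraries were made with a TruSeq kit that does not keep strand, reads were aligned with Bowtie to mm9, allowing at most 2 places, and exonic reads were counted per RefSeq transcript. The authors deposited raw counts and RPKM values, the latter divided by exon length and library size and left without ERCC correction. A read in a shared exon counts for every isoform. Total counts were between 25467427 and 31337313 per library, and genes with few counts are imprecise.

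The Mediator genes, modules, partner lists and markers were chosen with earlier results of these data known. Genes named in the text are those past an adjusted p of 0.05 in any test or past 1.5-fold against GFP, the 3 highest and 3 lowest in GFP, the paralog pairs, Med1, Med14, at most 2 genes of each partner list and the targets. Ccnc, Med30 in the comparison with GFP, Med9, Med26, the single primitive endoderm markers, and genes with copies or overlaps were added after their values were seen. Changes against GFP were log2 ratios of RPKM without a pseudocount, over genes with at least 1 RPKM in GFP. The test of counts was the quasi-likelihood test of edgeR 4.0.16 in R 4.3.3, with TMM scaling and p-values adjusted after Benjamini-Hochberg. All 6 libraries entered as 4 groups, on 14627 genes that reached 10 counts in 2 or more libraries. The step was tested on simulated counts. Alternatives were DESeq2 1.42.0, other scalings and filters, all RefSeq rows, a replicate block and leaving out each hairpin. Same-numbered hairpins are different constructs, and their deviations correlated at 0.042, so the numbers do not pair the libraries. Copies were searched with blastn 2.17.0 at 95% identity over at least 100 bases. Promoters came from the RefSeq table (GRCm38.p6).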

Additional observations from a re-analysis of the deposited data

How the results depend on the processing

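The median log2 change of the Mediator genes against GFP was -0.10 for SMC1, 0.048 for CAPH2 and -0.0009 for SMC2. Scaling to the ERCC counts moved it to 0.76, 0.38 and 0.60. All RefSeq rows gave 0.093 for SMC1 and 0.061 for CAPH2, DESeq2 size factors gave 0.039 for CAPH2, and leaving out a CAPH2 hairpin gave 0.022 and 0.033. Of 11 calls in SMC1 against the condensin hairpins, 1 was left with ERCC scaling and 7 with DESeq2. Over all genes 6412 were called in the main fit, 1402 with ERCC scaling and 4263 with DESeq2. The count depended on which hairpin was left out, for the Mediator genes and over all genes. Of 3 calls for the condensin hairpins against GFP, 0 were left with ERCC scaling and 1 with DESeq2, and 6 were made with no filter on low counts. Over all genes 1727 were called in the main fit, 0 with ERCC scaling, 1089 with DESeq2 and 2514 with no filter. Here too the count depended on which hairpin was left out. Adding a replicate block made the counts of Mediator calls 12 for SMC1 and 10 for the condensin hairpins, beside 7420 and 3510 calls over all genes. The numbers name different hairpins and do not pair the libraries. CAPH2 against SMC2 gave 0 calls under all alternatives run, the 4 condensin libraries alone included. With ERCC scaling the differences turned to 0.13 for Cdk19, 0.18 for Med24, 0.18 for Med26, 0.096 for Med27 and 0.045 for Med31 in SMC1 against the condensin hairpins, and to 0.18 for Med24, 0.16 for Med30 and 0.21 for Med9 in the condensin hairpins against GFP. The cause was not tested. SMC1 and GFP have 1 library each and could not be left out.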
